A study of Rattus norvegicus with 4 samples.

Results

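The genes described here control the passage of a cell from G1 into S phase in RT4D6 cells: the D-type cyclins Ccnd1, Ccnd2 and Ccnd3, cyclin E1 (Ccne1), the kinases Cdk4 and Cdk6, the CDK inhibitors Cdkn1a (p21), Cdkn1b (p27) and Cdkn1c (p57), and Mdm2. The genes were chosen with earlier results of these data known. Their probe sets were taken by gene symbol alone, as every probe set that the array annotation pairs with one of these 10 symbols and no other. This gave 16 probe sets of 10 genes, of 31042 probe sets without controls and 14217 genes with a single symbol. Ccnd1 and Mdm2 had 3 probe sets each, Cdkn1a and Cdkn1b 2 each, and the other 6 genes 1 each.

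RT4D6 is a rat Schwannoma line, so that all values come from 1 tumour line. Schwann cells, from which it derives, ensheath the axons of peripheral nerves. The cells received either a wild type siRNA, which is directed against the transcription factor Sox10, or a mutant siRNA as control, and RNA was taken after 48 h. Of the 4 Affymetrix rat arrays, 2 carried RNA of the wild type siRNA cells and 2 of the mutant siRNA cells, each with a replicate 1 and a replicate 2. The study describes the pairs of samples as independent of each other. The p-values rest on the spread between these 4 arrays, which limma pools in part over probe sets of like brightness. All cells were transfected, and no untreated cells were part of the comparison.

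Cyclins of the D type bind Cdk4 or Cdk6 and start the phosphorylation of the retinoblastoma protein, which releases E2F factors. Cyclin E then activates Cdk2 at the entry into S phase. The p21, p27 and p57 proteins bind and block these cyclin and kinase pairs. Mdm2 is the ubiquitin ligase that keeps p53 low, and both its gene and that of p21 are well known p53 targets. In Schwann cells, cyclin D1 is known for its part in the division that follows nerve injury.

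The values were MAS5 signals, one per probe set and array on a linear scale. The 4 arrays had median signals of 101 to 110 and 25th percentiles of 26.2 to 31.0, and the number of arrays limits the precision. For the tests, log2 signals were centred on the median of each array, and the 16125 probe sets at or above that median on at least 2 arrays entered limma. A probe set was called at a Benjamini-Hochberg adjusted p below 0.05, and fold changes are wild type minus mutant siRNA. Over all these probe sets the median log2 fold change was 0.13. The target itself, Sox10, had signals of 163 and 335 in wild type siRNA cells, against 2873 and 2890 in mutant siRNA cells. As a sign of RNA quality, the actin ratio of 3' over 5' signal was 1.54 and 1.39 in wild type siRNA cells, against 1.87 and 1.52 in mutant siRNA cells. The same ratio of Gapdh ran the other way, at 1.11 and 1.10 in wild type siRNA cells, against 1.06 and 1.07 in mutant siRNA cells. Of the 7 Schwann cell markers tested, Sox10 included, all 7 were called lower, beside 12.1% of all probe sets tested. Erbb3, among the 7, was below the array median on each wild type siRNA array. It entered the test only through the mutant siRNA arrays, at 674 and 438, so that the filter could admit it only as a lower gene. Sox10 is the target itself, and the study selected Erbb3 and Ngfr for their decrease in this comparison. Lower Gfap and higher smooth muscle actin were also known from the authors' earlier profiling. S100b, another of the 7, had 575 and 846 in wild type siRNA cells and 6808 and 3686 in mutant siRNA cells. Of 6 smooth muscle markers tested 3 were called higher, namely Acta2, Tagln and Cald1, beside 14.6% of all probe sets tested. The summed signal of the 12 markers on the array was 53996 and 71442 in wild type siRNA cells against 29087 and 43965 in mutant siRNA cells. Most of that sum is the signal of Tagln, Cald1 and Tpm1. Smtn, a further one of the 6, lay the other way at 280 and 401 in wild type siRNA cells against 522 and 771 in mutant siRNA cells (log2 fold change -0.84, adjusted p = 0.0633 from limma). Myocd, Des and Cnn1, other markers of that type, were dimmer than the array median on all 4 arrays. Whether this shift of markers has a part in the results below was not tested.

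In wild type siRNA cells, cyclin D1 was down-regulated in all 3 of its probe sets, while cyclin D3, p21 and Mdm2 were up-regulated in 1 of 1, 1 of 2 and 3 of 3 probe sets. Cyclin D2, cyclin E1, Cdk4 and p27 did not pass the test. Of the 16 probe sets, 14 from 8 genes were bright enough to test, and 8 of these 14 (57.1%) were called, beside 26.7% of all probe sets tested. Since the genes were chosen with earlier results of these data known, this share only describes the chosen set. In the lower direction 3 were called, beside 12.1% of all, and in the higher direction 5, beside 14.6% of all. Of the 8 calls 6 fall to the several probe sets of Ccnd1 and Mdm2, which measure the same gene and are not independent. The lists further below count only the brightest probe set of each gene, an unlike unit. By that rule Ccnd1, Ccnd3 and Mdm2 would be called, but Cdkn1a would not. In 10 of the 14 probe sets the signals of both groups did not overlap, a share close to the 67.7% over all probe sets tested, so that separation on these 4 arrays is common. The median log2 fold change of the 14 probe sets was 0.29, beside the 0.13 of all, and the median size of the change regardless of sign was 0.76 beside 0.51.

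**Figure D1:**
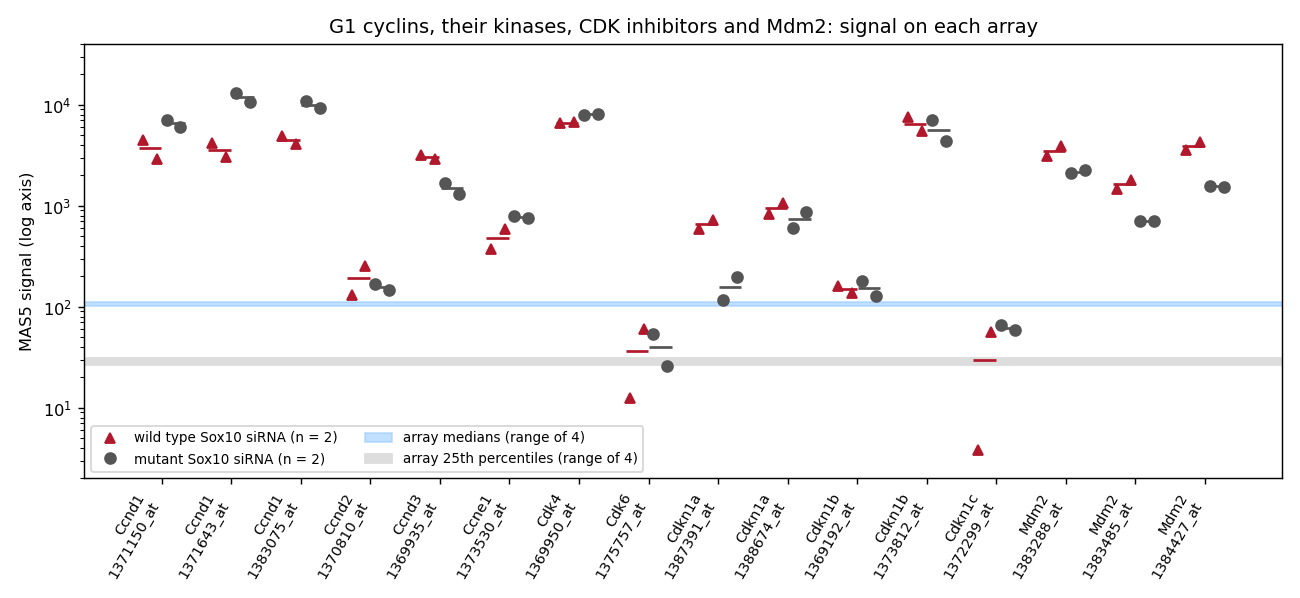
MAS5 signal of each of the 16 probe sets on every array (log axis), with the wild type Sox10 siRNA arrays as red triangles left of the mutant Sox10 siRNA arrays as grey circles, replicate 1 before replicate 2 in each pair of marks, and the mean of 2 as a line. Ccnd1 lies lower and Ccnd3, Mdm2 and the first Cdkn1a probe set lie higher in wild type siRNA cells, and Cdk6 and Cdkn1c lie below the array medians of 101 to 110 on all arrays.

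The D-type cyclins Ccnd1 and Ccnd3 moved in opposite directions. Ccnd1, the cyclin of Cdk4 and Cdk6 that mitogens induce, had signals of 4145 and 3024 in wild type siRNA cells in probe set 1371643_at, against 13020 and 10614 in mutant siRNA cells. Both wild type siRNA arrays thus lay far below both mutant siRNA arrays. The means were 3584 ± 792 in wild type siRNA cells and 11817 ± 1701 in mutant siRNA cells (SD, n = 2 each). On the log2 scale limma gave -1.65 with a standard error (SE) of 0.19 and an adjusted p of 0.00207, a 3.14-fold decrease. In 1383075_at, Ccnd1 had 4891 and 4089 in wild type siRNA cells, against 10838 and 9201 in mutant siRNA cells. This is again a clear separation, with a 2.11-fold decrease (log2 fold change -1.08, SE 0.17, adjusted p = 0.00429). The third probe set, 1371150_at, had 4522 and 2903 in wild type siRNA cells, against 7085 and 5990 in mutant siRNA cells. Its groups did not overlap either, but the change was smaller, at -0.77 (SE 0.22, adjusted p = 0.0342). Within the replicate pairs, the 3 probe sets lay at -0.61, -1.62 and -1.11 in pair 1 and at -0.92, -1.69 and -1.05 in pair 2. The call of 1371150_at was lost without wild type siRNA replicate 2 (-0.48, adjusted p = 0.124), without mutant siRNA replicate 1 (-0.63, adjusted p = 0.171), without mutant siRNA replicate 2 (-0.91, adjusted p = 0.0726) and without the intensity trend (adjusted p = 0.114). The calls of the other 2 Ccnd1 probe sets held in each limma fit with an array left out, at adjusted p of at most 0.0194 and 0.0364.

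Ccnd3, the D-type cyclin that stays on in many differentiating tissues, went the other way. Its signals in 1369935_at were 3149 and 2905 in wild type siRNA cells and 1672 and 1303 in mutant siRNA cells, so both wild type siRNA arrays were higher. The means were 3027 ± 173 in wild type siRNA cells and 1488 ± 261 in mutant siRNA cells (SD, n = 2 each), a 2.16-fold increase by limma (log2 fold change 1.11, SE 0.20, adjusted p = 0.00689). The pairs gave 0.95 and 1.28, and the call held with each array left out in turn (adjusted p of at most 0.0442). Ccnd2, the third D-type cyclin, had 130 and 253 in wild type siRNA cells and 169 and 146 in mutant siRNA cells. Its groups overlapped, and the pairs disagreed in sign, at -0.34 and 0.92. The log2 fold change of Ccnd2 was 0.29 with a 95% interval from -0.68 to 1.25 (adjusted p = 0.638), and this interval still holds an increase of the size seen in Ccnd3.

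Ccne1, the cyclin of Cdk2 at the start of S phase, had signals of 374 and 587 in wild type siRNA cells and 798 and 758 in mutant siRNA cells. Both wild type siRNA arrays lay below the mutant siRNA arrays, but replicate 1 far more than replicate 2, at -1.06 and -0.24 within the pairs. By limma it lay at -0.65 on the log2 scale (SE 0.27, 95% interval -1.27 to -0.03). The unadjusted p was 0.0417 and the adjusted p 0.107, so Ccne1 was not called. Without wild type siRNA replicate 2 it passed, at -1.004 (adjusted p = 0.0172), and without wild type siRNA replicate 1 it was at -0.30 (adjusted p = 0.463).

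Of the kinases, Cdk4 changed little. Its signals were 6597 and 6697 in wild type siRNA cells and 7932 and 8173 in mutant siRNA cells, groups that are narrow and do not overlap. Limma put the difference at -0.20 on the log2 scale (SE 0.14, adjusted p = 0.333), and the 95% interval of -0.53 to 0.13 does not reach a 2-fold decrease. Cdk6, its close relative, was too dim to test, with signals of 12.4 and 59.9 in wild type siRNA cells and 53.9 and 25.7 in mutant siRNA cells. These values lie below the array median on all 4 arrays and below the 25th percentile on 2, and no fold change is given.

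**Figure D2:**
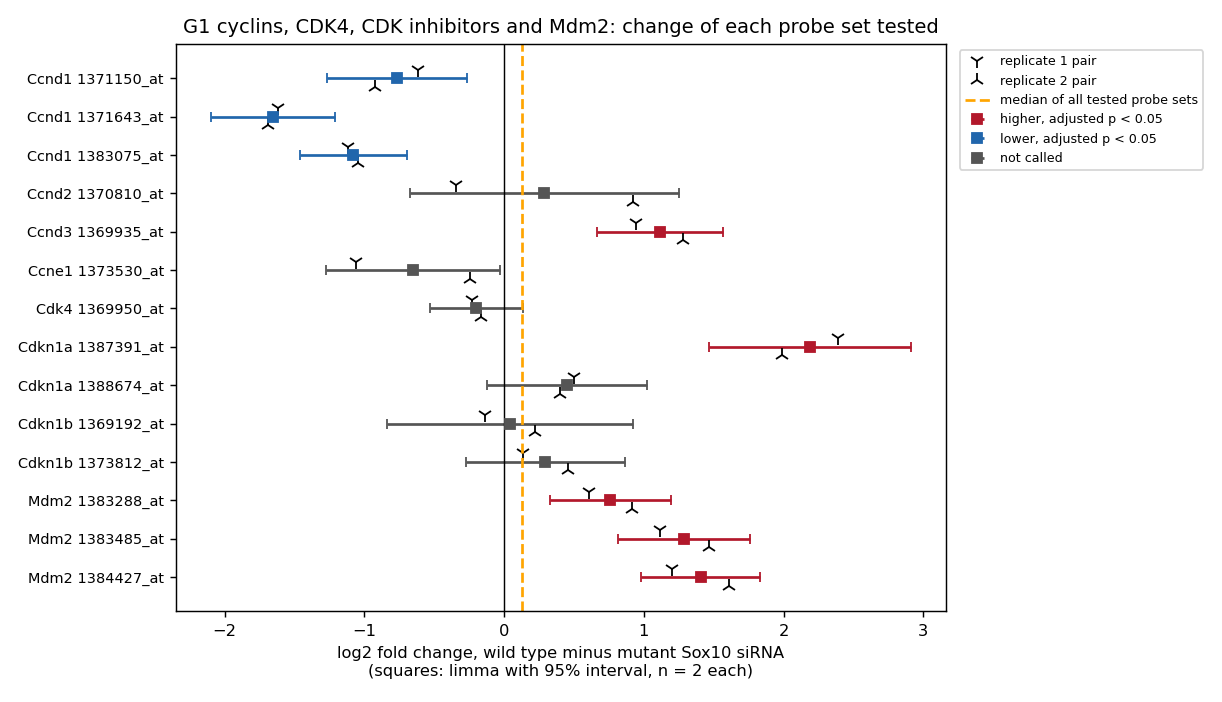
Log2 fold change of the 14 tested probe sets (x axis, wild type minus mutant Sox10 siRNA), with squares for the limma estimate, bars for its 95% interval and small marks for each replicate pair. The 3 Ccnd1 probe sets lie between -1.65 and -0.77, and the called Ccnd3, Cdkn1a and Mdm2 probe sets lie between 0.76 and 2.19, all beyond the median of 0.13 over all probe sets tested (dashed line).

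Among the CDK inhibitors, the call fell on p21 alone. In 1387391_at, Cdkn1a had 593 and 717 in wild type siRNA cells and 116 and 197 in mutant siRNA cells. The mutant siRNA signal of replicate 1 is near its array median of 108, and that of replicate 2 lies above its array median of 110. In both pairs the wild type siRNA signal is several times as high as the mutant siRNA signal. The means were 655 ± 87.8 in wild type siRNA cells and 157 ± 57.6 in mutant siRNA cells (SD, n = 2 each). The 4.56-fold increase (limma log2 fold change 2.19, SE 0.32, adjusted p = 0.00347) was larger in size than the change of any other probe set among the 14. The second Cdkn1a probe set, 1388674_at, was brighter on every array, with 836 and 1058 in wild type siRNA cells and 605 and 874 in mutant siRNA cells. Here the groups overlapped, and the log2 fold change of 0.45 (95% interval -0.12 to 1.02, adjusted p = 0.209) was not called. The pairs gave 2.39 and 1.99 in the first probe set and 0.50 and 0.40 in the second, so both pointed upward in both pairs, but their sizes differed by 1.74 on the log2 scale. Which part of the transcript each probe set covers was not examined here, and the size of the p21 change rests on the choice of probe set. The call of 1387391_at held with each array left out (1.82 to 2.55, adjusted p of at most 0.0210).

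Cdkn1b, the inhibitor p27 that accumulates in resting cells, did not move detectably. Its probe set 1373812_at had 7510 and 5474 in wild type siRNA cells and 6996 and 4355 in mutant siRNA cells. On both sides replicate 1 was higher than replicate 2, and the groups overlapped. The difference by limma was 0.30 on the log2 scale (95% interval -0.27 to 0.87, adjusted p = 0.403). The other probe set of Cdkn1b, 1369192_at, had 160 and 138 in wild type siRNA cells and 180 and 129 in mutant siRNA cells, and lay at 0.04 (95% interval -0.84 to 0.92, adjusted p = 0.948). Cdkn1c, the inhibitor p57, was too dim to test, with 3.80 and 55.6 in wild type siRNA cells and 65.5 and 58.5 in mutant siRNA cells. Wild type siRNA replicate 1 was below the 25th percentile of its array, while replicate 2 lay close to the mutant siRNA arrays.

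Mdm2 was up-regulated in each of its 3 probe sets. In 1384427_at its signals were 3558 and 4272 in wild type siRNA cells and 1580 and 1524 in mutant siRNA cells. The mutant siRNA arrays were nearly equal, and both wild type siRNA arrays stood well above them. The means were 3915 ± 505 in wild type siRNA cells and 1552 ± 39.5 in mutant siRNA cells (SD, n = 2 each), a 2.65-fold increase by limma (log2 fold change 1.41, SE 0.19, adjusted p = 0.00276). In 1383485_at, Mdm2 had 1481 and 1792 in wild type siRNA cells and 699 and 708 in mutant siRNA cells, at 1.29 (SE 0.21, adjusted p = 0.00488). The pattern is the same, with no overlap. In 1383288_at it had 3122 and 3871 in wild type siRNA cells and 2096 and 2239 in mutant siRNA cells, at 0.76 (SE 0.19, adjusted p = 0.0214). In all 3 Mdm2 probe sets pair 2 showed the larger difference, at 1.61, 1.46 and 0.91, against 1.20, 1.12 and 0.61 in pair 1. The call of 1383288_at was lost without wild type siRNA replicate 2 (0.58, adjusted p = 0.0694), mutant siRNA replicate 1 (0.73, adjusted p = 0.0971) or mutant siRNA replicate 2 (0.79, adjusted p = 0.0803), and without the intensity trend (adjusted p = 0.0772). The other 2 probe sets of Mdm2 kept their calls in these limma fits.

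The stretches of 250 bases before the gene start are shown for Ccnd3, Cdkn1a and Mdm2, the 3 genes with a probe set called higher, from RefSeq on the build GRCr8. They are chr9:20897876-20898125 on the minus strand, chr20:7150682-7150931 on the plus strand and chr7:55200792-55201041 on the minus strand. In Ccnd3 and Mdm2 the capitals mark the GC box (GGGCGG or its complement CCGCCC) and the CCAAT box (CCAAT or ATTGG), and in Cdkn1a a p53 decamer, one arm of the site that p53 binds.
Ccnd3: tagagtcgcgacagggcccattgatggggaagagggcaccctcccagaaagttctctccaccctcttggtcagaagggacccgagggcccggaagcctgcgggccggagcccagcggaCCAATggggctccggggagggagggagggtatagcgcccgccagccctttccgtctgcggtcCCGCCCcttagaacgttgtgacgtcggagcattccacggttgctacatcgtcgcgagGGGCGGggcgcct
Cdkn1a: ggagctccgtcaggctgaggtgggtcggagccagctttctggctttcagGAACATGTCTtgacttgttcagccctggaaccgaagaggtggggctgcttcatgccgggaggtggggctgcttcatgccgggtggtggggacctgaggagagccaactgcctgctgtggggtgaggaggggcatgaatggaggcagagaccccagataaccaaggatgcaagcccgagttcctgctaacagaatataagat
Mdm2: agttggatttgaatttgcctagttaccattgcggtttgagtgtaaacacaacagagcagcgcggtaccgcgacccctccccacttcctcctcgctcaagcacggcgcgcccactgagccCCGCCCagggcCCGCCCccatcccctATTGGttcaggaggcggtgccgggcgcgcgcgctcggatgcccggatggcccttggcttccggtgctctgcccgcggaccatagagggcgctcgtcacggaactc
Of the 10 genes, 6 had such a stretch in the table used here, namely these 3 with Ccne1, Cdk4 and Cdkn1b. Ccnd1, Ccnd2, Cdk6 and Cdkn1c did not. The p53 decamer was found in Cdkn1a alone among the 6, at bases -201 to -192 from the start, and in 6.64% of all 33469 stretches of this length. A GC box was found in 5 of the 6 and in 30.5% of all stretches, and a CCAAT box in 3 of the 6 and in 34.0% of all. The core that Sox proteins bind, ACAAT or its complement ATTGT, was found in Cdkn1b alone, at bases -113 to -109, and in 30.0% of all. The E box CACGTG was found 3 times in Cdk4, and in 5.59% of all stretches. The E2F motifs TTTCCCGC and TTTGGCGC, on either strand, were in none of the 6 and in 0.813% and 0.412% of all. In the sequences shown of Ccnd3 and Mdm2, the GC and CCAAT boxes do not overlap each other. A match describes the letters of this window and is not evidence of binding. The lack of a match, as of the p53 decamer in Mdm2, says nothing of sites outside the window.

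The other genes of the same pathway were read from lists, with 1 probe set per gene, the brightest. These lists too were chosen with earlier results known, so the shares below only describe them. S phase genes, most of them known E2F targets, were lower nearly throughout. Of 30 tested, 28 (93.3%) were called lower and none higher by limma, beside 12.1% lower and 14.6% higher of all probe sets tested. At an unadjusted p below 0.05 the counts were 28 and 0, beside 2847 and 3811 of all 16125. The median log2 fold change was -1.45, beside 0.13 over all probe sets tested. Mcm5, a subunit of the replicative helicase, had 376 and 835 in wild type siRNA cells and 3090 and 2418 in mutant siRNA cells, at -2.21 (SE 0.36, adjusted p = 0.00517). Cdt1, which loads that helicase, was at -2.14, the clamp loader subunit Rfc5 at -1.99 and the helicase subunit Mcm7 at -1.92 (adjusted p = 0.00484, 0.0171 and 0.00205). The exceptions were Rfc4 at -0.55 (adjusted p = 0.121) and Tyms, thymidylate synthase, at -0.13 (adjusted p = 0.767), named here because they did not pass. With the replicate number as a block the count of 28 was 29. It was 12 without mutant siRNA replicate 1, 16 without mutant siRNA replicate 2 and 16 without the intensity trend, and the Rfc5 call was lost in these 3 fits (adjusted p = 0.0587, 0.0795 and 0.0747).

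Of 17 markers of proliferation tested, 14 (82.4%) were called lower and none higher by limma, beside 12.1% lower and 14.6% higher of all probe sets tested, with a median log2 fold change of -1.43. At an unadjusted p below 0.05 all 17 were lower and 0 higher. Bub1b, a kinase of the spindle checkpoint, was at -2.08, Top2a, the topoisomerase of dividing cells, at -1.80, the kinesin Kif20a at -1.75 and the spindle protein Nusap1 at -1.70 (adjusted p = 0.00853, 0.0144, 0.0164 and 0.0150). In each of the 17 wild type siRNA replicate 1 lay below wild type siRNA replicate 2, as in 29 of the 30 S phase genes. Among the mutant siRNA arrays, replicate 1 lay below replicate 2 in 16 of the 17 markers of proliferation and in 10 of the 30 S phase genes. The summed signal of the 17 markers was 11952 and 25923 in wild type siRNA cells and 42833 and 57285 in mutant siRNA cells. With the replicate number as a block the count of 14 was 17. It was 9 without wild type siRNA replicate 1, 6 without mutant siRNA replicate 1, 1 without mutant siRNA replicate 2 and 2 without the intensity trend. Top2a and Nusap1 lost their calls without either mutant siRNA array (adjusted p between 0.0521 and 0.0765) and Kif20a without mutant siRNA replicate 2 (adjusted p = 0.0905), and all 3 without the intensity trend (adjusted p between 0.0678 and 0.0746). Among the 14 probe sets of the cyclins, inhibitors and Mdm2, wild type siRNA replicate 1 was the lower one in 8, and mutant siRNA replicate 1 in 5. In RNA of whole cultures, fewer dividing cells and less RNA of these genes per cell cannot be told apart, and this holds for the cyclins and inhibitors too. The part of such a shift in the changes of Ccnd1, Ccnd3, Cdkn1a and Mdm2 was not tested.

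**Figure D3:**
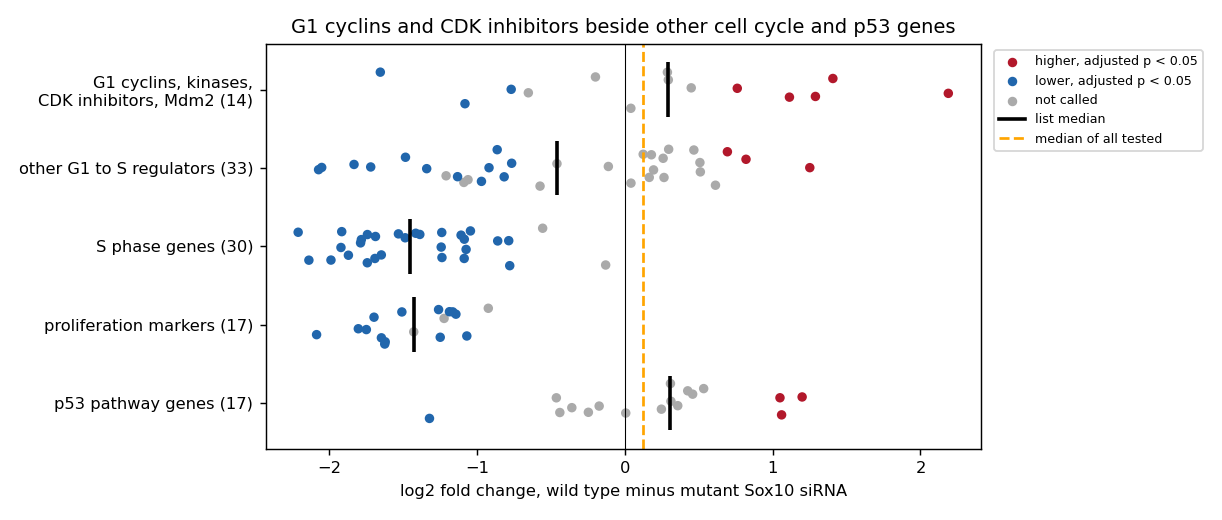
Log2 fold change (x axis, wild type minus mutant Sox10 siRNA) of the 14 probe sets of the G1 cyclins, Cdk4, CDK inhibitors and Mdm2 (top row, each point a probe set) and of the genes of 4 lists (each point a gene). S phase genes and proliferation markers lie at medians of -1.45 and -1.43, while the G1 cyclins and CDK inhibitors spread to both sides around 0.29.

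Of 33 other regulators of the step from G1 to S phase tested, 12 were called lower and 3 higher by limma, and the median log2 fold change was -0.46. The counts are 36.4% and 9.09% of the list, beside 12.1% and 14.6% of all probe sets tested. With the replicate number as a block, 16 were lower and 4 higher. E2f2, among the 12, was below the array median in wild type siRNA cells, at 73.7 and 74.6. It entered the test only through the mutant siRNA arrays, at 256 and 187. With the filter at or above the median on all 4 arrays, 10 were lower and 2 higher. The repressive E2F factor E2f8 was at -2.07, the kinase subunit Cks2 at -2.05, the retinoblastoma relative Rbl1 (p107) at -1.83 and E2f7, a second repressive E2F, at -1.72 (adjusted p = 0.0211, 0.00512, 0.0207 and 0.0367). Of the partners of the genes above, named after their values were seen, Cdk2 had 363 and 619 in wild type siRNA cells and 1109 and 1083 in mutant siRNA cells, at -1.13 (adjusted p = 0.0229). The activating factor E2f1 was at -0.76 (adjusted p = 0.0473), whereas Ccne2, the second cyclin E gene, was at -1.06 (adjusted p = 0.157) and Rb1, the retinoblastoma gene itself, at 0.13 (adjusted p = 0.767). The count of 12 was 5 without wild type siRNA replicate 1, 4 without mutant siRNA replicate 1, 2 without mutant siRNA replicate 2 and 3 without the intensity trend, and the count of 3 was 1, 0, 0 and 1 in these fits and 1 without wild type siRNA replicate 2. E2f8, Rbl1 and E2f7 lost their calls without mutant siRNA replicate 1 or 2 and without the intensity trend (adjusted p between 0.0674 and 0.136), and E2f7 also without wild type siRNA replicate 1 (adjusted p = 0.0606).

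Genes of the p53 pathway, to which Cdkn1a and Mdm2 belong but which were listed without them, were called in both directions. Of 17 tested, 3 were called higher and 1 lower by limma, 17.6% and 5.88% of the list beside 14.6% and 12.1% of all probe sets tested, with a median log2 fold change of 0.31 beside 0.13. With the replicate number as a block, 4 were higher and 1 lower. Ccng1, cyclin G1, a p53 target, had 8899 and 9844 in wild type siRNA cells and 5164 and 4414 in mutant siRNA cells, groups that lie well apart. It was at 1.05 (SE 0.17, adjusted p = 0.00466), a 2.07-fold increase, and held with each array left out. The death receptor gene Fas was at 1.20 and Tp53bp1, an adaptor of the DNA damage response, at 1.06 (adjusted p = 0.0151 and 0.0125). Bcl2l1, which encodes the survival protein Bcl-xL, was the gene called lower, at -1.32 (adjusted p = 0.0262). Among the 13 genes not called, chosen after their values were seen, Gadd45a was at 0.36 (adjusted p = 0.180) and Zmat3 at -0.44 (adjusted p = 0.186), both known p53 targets. Fas lost its call without mutant siRNA replicate 1, wild type siRNA replicate 2 or mutant siRNA replicate 2 (adjusted p = 0.0757, 0.0517 and 0.0510), and Tp53bp1 without mutant siRNA replicate 2 (adjusted p = 0.0803), so that the count of 3 was 1 without mutant siRNA replicate 2. Bcl2l1 lost its call without wild type siRNA replicate 1, mutant siRNA replicate 1 or mutant siRNA replicate 2 (adjusted p = 0.0763, 0.0845 and 0.141) and without the intensity trend (adjusted p = 0.0567), which left 0 called lower, while without wild type siRNA replicate 2 the count was 2.

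**Figure D4:**
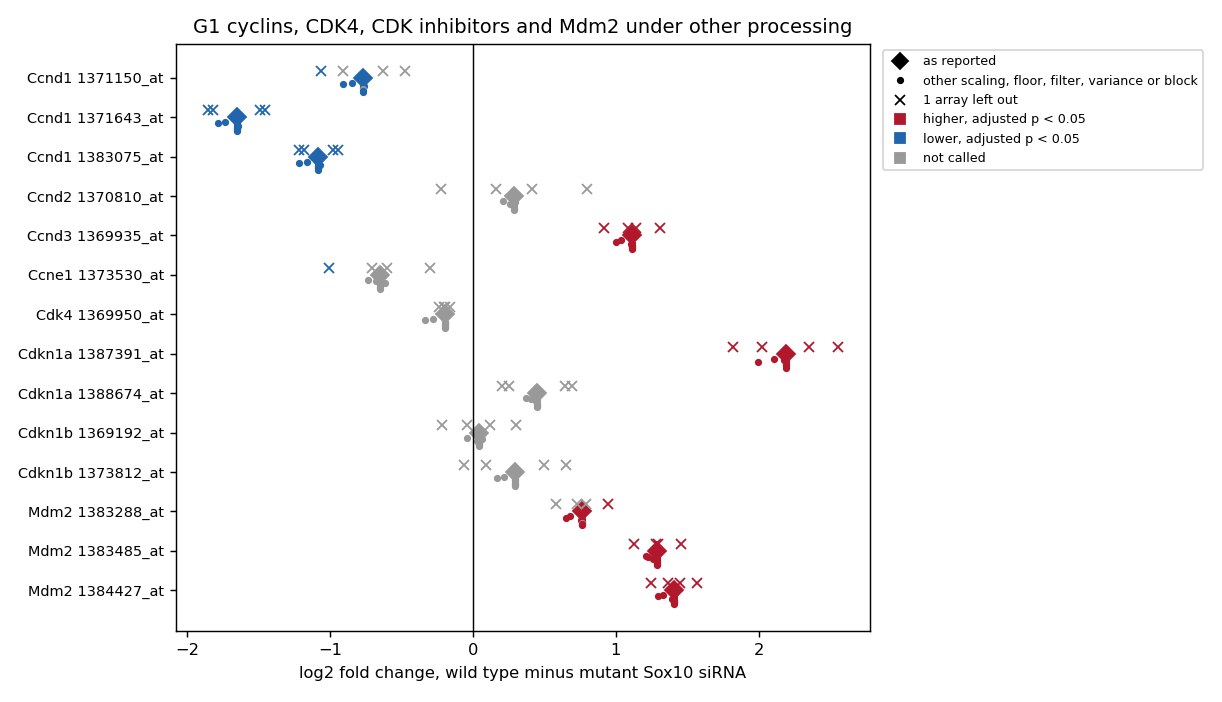
Log2 fold change (x axis, wild type minus mutant Sox10 siRNA) of the 14 probe sets as reported (diamonds), under 9 other limma settings (dots) and with 1 array left out (crosses), in colour where the adjusted p is under 0.05. The called probe sets keep their sign in all these fits, and the calls that are lost are those of 1371150_at (Ccnd1) and 1383288_at (Mdm2), while Ccne1 is called in 1 fit.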

How the data were processed

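RNA of 4 RT4D6 cultures was hybridised to 1 Affymetrix rat array each. What the authors deposited are intensity values, MAS5 signals on a linear scale with 1 per probe set, and every array has the same 2% trimmed mean of 500.2. The submitters' processing notes name MAS5 with no version. Detection calls were not used here.

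The log2 of each signal was taken, less the median of its array. Of 31099 probe sets, 57 controls were left out, and 16125 of the other 31042 entered the limma fit (limma 3.58.1, R 4.3.3, lmFit, then eBayes with trend). Genes were named from the platform annotation, in which 20826 probe sets carry a single symbol, 436 several and 9780 none. Those with several were given no name. On simulated arrays with independent normal noise and no pairing, the same script recovered the median size of the planted changes. That check set no demand on how many of them were called.

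The genes and lists were chosen with earlier results of these data known. Of the 39 other G1 to S regulators, 34 S phase genes, 17 proliferation markers and 29 p53 pathway genes listed, 36, 30, 17 and 21 had a probe set with a single symbol, and 33, 30, 17 and 17 were tested. Cdkn2a is in both the first and the last list and was too dim to test. From each list the 4 called genes with the largest change were named, besides those said to be named later. Markers of other cell types were mostly dim: of 8 fibroblast, 8 macrophage and lymphocyte, 4 endothelial and 7 neuron markers on the array, 3, 2, 1 and 2 were tested, of which 0, 1, 0 and 1 were called, each lower. The lymphocyte marker called, Cd3g, was below the array median in wild type siRNA cells, at 53.5 and 78.9. It entered the test only through the mutant siRNA arrays, at 186 and 335.

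The alternatives were 14: other scalings, floors, filters and variance models, the methods' t-test, the replicate number as a block, and each array left out. The submitters' design describes paired cells, so same-numbered arrays were taken as pairs in the block. Their deviations from the group means correlated at 0.14. The study calls the pairs independent, and what a pair shares is not given in the sources used here. Promoter stretches came from RefSeq (GRCr8). Python 3.11.15 served for the tables (pandas 2.3.3) and the plots (matplotlib 3.10.9).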

Additional observations from a re-analysis of the deposited data

How the results depend on the processing

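The 3 Ccnd1 probe sets called lower and the 5 probe sets of Ccnd3, Cdkn1a and Mdm2 called higher kept those counts with signals as deposited, with quantile normalization, with a floor or pseudocount, with both other filters, with robust eBayes and with the replicate block. The replicate block gave 2580 lower and 3308 higher over all probe sets, against 1956 and 2348 without it, and changed no call of the 14 probe sets described. In the lists it gave 29 S phase genes, 17 proliferation markers, 16 other G1 to S regulators and 1 p53 pathway gene lower, and 0, 0, 4 and 4 higher. Without the intensity trend 2 were lower and 4 higher, and with an array left out 2 to 3 and 4 to 5, where without wild type siRNA replicate 2 Ccne1 is 1 of the 3 lower and Ccnd1 in 1371150_at is not. The methods' t-test was run unpaired on log2 values with equal variances, because the methods state neither. At the methods' unadjusted p of 0.05, 3 were lower and 4 higher, Cdk4 among the lower. After Benjamini-Hochberg adjustment the counts were 0 and 0. The methods first asked for detection on the control arrays and a minimum size of decrease, and these filters were not set here. Cdk4 was only 1.15-fold lower by limma. Over all probe sets the t-test gave 1386 lower and 2444 higher at an unadjusted p below 0.05, and 0 and 2 after adjustment. It called 0 lower and 0 higher in each of the 4 lists after adjustment. Before adjustment it gave 9 S phase genes, 0 proliferation markers, 3 other G1 to S regulators and 1 p53 pathway gene lower. In the higher direction these counts were 0, 0, 3 and 3.

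Without the intensity trend, 1187 probe sets were lower and 1177 higher over all. The lists gave 16 S phase genes, 2 proliferation markers, 3 other G1 to S regulators and 0 p53 pathway genes called lower. In the higher direction they gave 0, 0, 1 and 3, in the same order. With an array left out, the ranges were 706 to 2519 lower and 924 to 2128 higher over all, 12 to 29 S phase genes and 1 to 17 proliferation markers lower, 2 to 14 lower and 0 to 1 higher among the other G1 to S regulators, and 0 to 2 lower and 1 to 4 higher in the p53 pathway. An array left out leaves 1 array in its group, assumed to vary like the other group. The cause of the other shifts was not tested.

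Signs turned only where nothing was called. Ccnd2 was at -0.22 without wild type siRNA replicate 2, with a range of -0.22 to 0.80 over the arrays left out. Cdkn1b in 1369192_at was at -0.037 with signals as deposited, at -0.039 without wild type siRNA replicate 1 and at -0.22 without mutant siRNA replicate 2 (range -0.22 to 0.30). In 1373812_at it was at -0.065 without mutant siRNA replicate 2 (range -0.065 to 0.65). The median log2 fold change of all probe sets tested was 0.13 after centring, 0.05 as deposited and 0.08 after quantile normalization. Cdk6 and Cdkn1c, below the array median on all 4 arrays, entered the fit only where no filter was set.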
